A study of Mus musculus with 12 samples.

Results

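Muscle of mice bearing a pancreatic tumour was compared with muscle of tumour-free mice, using 8 of the 12 libraries of the study and all 13578 genes listed for this pair of groups. The RNA came from C57BL/6J mice and from their tibialis anterior, the shin muscle, built mostly of fast fibres. In the KPC group (4 samples) the mice ate standard chow and had received, by surgery into the pancreas, KPC cells of a murine pancreatic cancer line. In the Sham group (4 samples) they ate the same chow and had no tumour. The other 4 libraries, from tumour-bearing mice fed ursolic acid, were not used here. The injection protocol is worded identically for every sample, so the labels do not say what the Sham mice received in its place, and the sources used here give neither the age and sex of the mice nor the interval between injection and dissection. The labels name separate samples without tying each to its own mouse, and p-values below therefore measure only the spread between these samples, which may be technical. Each library is called by its group and its replicate number, and values of a group are given in the order of replicates 1 to 4.

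Tumours at a distance can cause cachexia, a loss of muscle mass that feeding does not reverse. In mouse muscle, wasting is known to involve FOXO transcription factors, which induce the ubiquitin ligases atrogin-1 and MuRF1 that mark muscle proteins for the proteasome, together with autophagy. Glucocorticoids, interleukin-6 family cytokines, myostatin and activins favour this state, while IGF-1 acts against it through AKT and mTORC1.

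The listed genes held 22306724 to 31966189 reads per KPC library and 23794631 to 29440254 per Sham library, and every listed gene had at least 81 reads over the 8 libraries. A normalised read count below is the authors' deposited value, which equals whole reads divided by a size factor for each library, so depth limited only the lowest genes. The KPC samples differed far more from each other than the Sham samples did. The SD of log2 values within the 4 KPC samples exceeded that within the 4 Sham samples in 82.1% of genes, with medians of 0.463 and 0.226. Relative to the Sham mean, 1653, 67, 192 and 551 genes lay more than 2 log2 units away in KPC replicates 1 to 4, against 22, 12, 11 and 9 in Sham replicates 1 to 4. KPC replicate 1 therefore stood farthest from the Sham samples and KPC replicate 2 closest to them. Among the tenth of genes with the greatest total exon length the median deviation was 0.27, 0.15, 0.21 and -0.22 in the KPC samples and -0.26, 0.09, 0.04 and 0.15 in the Sham samples. The part of gene length in the results was not tested.

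The tissue label was checked with transcripts that define fast muscle. All 10 genes of that list were listed, and their summed normalised read count ranged from 4044246 to 4758865 in the KPC samples and from 4136073 to 5521436 in the Sham samples. Myh4, the myosin heavy chain of the fastest fibres, had 1860838, 1686668, 1430365 and 983057 in the KPC samples, against 1205194, 2032393, 1808859.8 and 1304383 in the Sham samples, and the groups overlapped (log2 fold change -0.10, limma adjusted p = 0.815). Ckm, muscle creatine kinase, and Tnnc2, fast troponin C, also overlapped, as did Pvalb, the calcium buffer parvalbumin, while Mylpf, the fast regulatory light chain, was below the Sham range (log2 fold changes -0.05, -0.53, -0.65 and -0.61). Neither limma nor the authors' deposited table called any of the 10 genes, and their median log2 fold change was -0.09 (-0.19 to -0.07 with 1 library left out). Of 11 markers of pancreatic tumour and epithelium, 10 were not listed, among them the keratins Krt7, Krt8, Krt18 and Krt19, Epcam and Cdh1. The listed one, Sox9, had 195, 41.6, 42.2 and 40.2 in the KPC samples, against 37.3, 68.7, 36.3 and 20.5 in the Sham samples, with KPC replicate 1 apart from the other 7 libraries (log2 fold change 0.70, limma adjusted p = 0.42, and 0.14 without KPC replicate 1).

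The comparison asked which muscle transcripts change when a pancreatic tumour is present. On log2(value + 1), 13542 genes with a mean normalised read count of at least 10 were tested with limma, and an adjusted p under 0.05 after Benjamini-Hochberg correction counted as a call. Limma called 48 genes higher in KPC muscle (0.354% of those tested) and 112 lower (0.827%). The authors' deposited adjusted p-values called 916 genes higher (6.79% of 13496 genes with a value) and 679 lower (5.03%), and these held all 160 limma calls in the same direction. Every KPC value lay above every Sham value in 1355 genes (10%) and below in 1233 genes (9.11%), and all 160 limma calls were among them. The median log2 fold change over all genes tested was 0.01, with 6838 positive. "Rose" and "fell" below are used only of limma calls.

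The number of calls turned on single libraries. Without KPC replicate 3, KPC replicate 4 or any of the 4 Sham replicates, limma called 0 genes (smallest adjusted p = 0.0705 to 0.131 by limma). Every limma call named below was therefore lost in those fits. At an unadjusted p under 0.05 by limma, the same fits held 2283 to 3477 genes, against 3312 with all 8 libraries. Without KPC replicate 1 it called 395 genes and without KPC replicate 2, the sample closest to the Sham libraries, 1350, and both sets held all 160. DESeq2 on the recovered reads, which gave 1595 calls, as many as the authors' deposited table, called between 652 and 2961 genes with a library left out. Among the 160 genes the median change in the direction of the call was 2.37, 1.27, 1.84 and 2.00 log2 units in KPC replicates 1 to 4. These genes were chosen on the same libraries, and none overlapped between groups. A change in that direction in every KPC library therefore follows from the choice and adds no support to the calls.

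**Figure D1:**
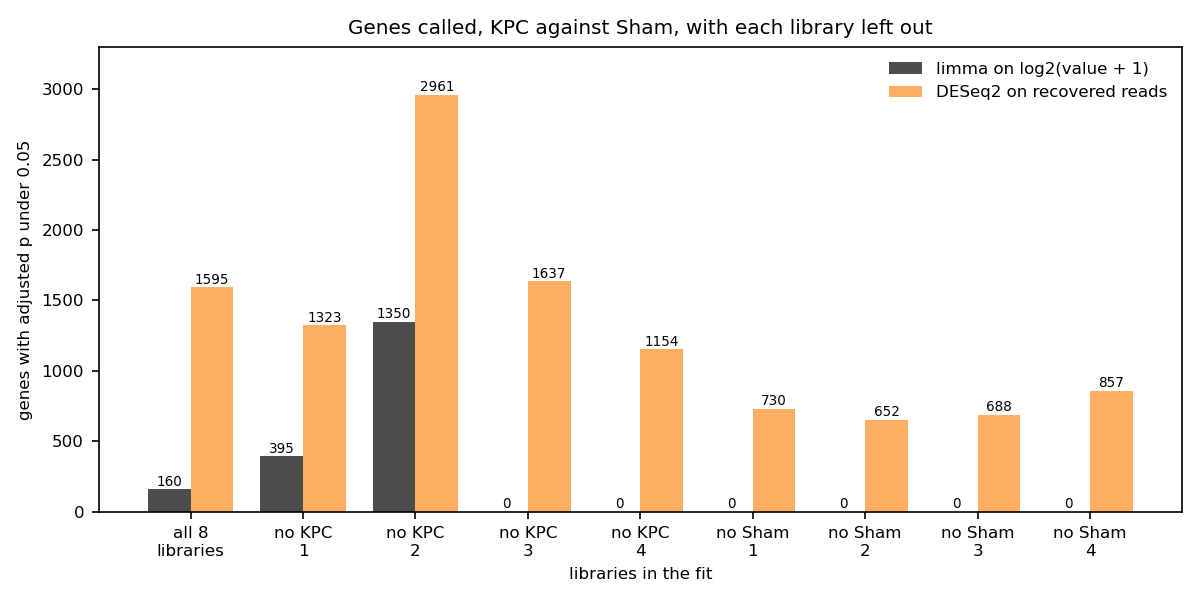
Number of genes with an adjusted p under 0.05 in KPC against Sham (vertical axis) for the fit with all 8 libraries and for fits without 1 library (horizontal axis). Dark bars are limma on log2(value + 1) and light bars DESeq2 on the recovered reads. The limma count is 160 with all libraries, 1350 without KPC replicate 2 and 0 in 6 of the fits with a library left out.

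Of the genes that rose without overlap and with a mean of at least 50, the 15 with the largest changes included Ddit4, Il6ra, Pdk4 and Fbxo32. Ddit4 (GRCm38 chromosome 10, 59949669 to 59951834), a stress-induced inhibitor of mTORC1, had normalised read counts of 22818, 2694, 6344 and 7741 in the KPC samples, against 448, 681, 461 and 900.4 in the Sham samples. The lowest KPC value was far above the highest Sham value (log2 fold change 3.63 ± 0.54 SE, limma adjusted p = 0.0321). Il6ra, the ligand-binding chain of the interleukin-6 receptor, had 5935, 283, 636 and 1564 in the KPC samples, against 79.6, 85.5, 68.4 and 94.8 in the Sham samples. The Sham values lay close together while the KPC values spread widely, with replicate 1 highest and replicate 2 lowest (log2 fold change 3.79 ± 0.74 SE, limma adjusted p = 0.0454). Pdk4 (chromosome 6, 5483351 to 5496309), the kinase that shuts off pyruvate dehydrogenase, had 208940.3, 28603, 61687 and 46682 in the KPC samples, against 6296, 4852, 8625 and 12258 in the Sham samples, again with no overlap (log2 fold change 3.09 ± 0.54 SE, limma adjusted p = 0.0379). Acot1, a cytosolic acyl-CoA thioesterase, had 1363, 54.8, 76.7 and 324 in the KPC samples, against 2.02, 4.19, 9.62 and 8.80 in the Sham samples. Its neighbour Acot2, the mitochondrial form, had 6391, 758, 1119.9 and 2603 in the KPC samples, against 309, 205, 291 and 331 in the Sham samples. Both rose (log2 fold change 5.04 ± 0.90 SE, limma adjusted p = 0.0379 for Acot1 and log2 fold change 2.79 ± 0.56 SE, limma adjusted p = 0.0466 for Acot2), but the pair are near-identical in sequence, so the split of reads between them is uncertain.

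Among the other 10 genes at the top were Fbxo32, Glul and Gadd45a, described below. Rassf4, of the RASSF family of Ras-binding proteins, and Tmem140, a membrane protein, rose by 2.89 and 2.07 log2 units (limma adjusted p = 0.0337 and 0.0379). Slc25a34, a mitochondrial carrier, had 3120.5, 705, 1154 and 1531 in the KPC samples, against 281, 92.2, 170.0 and 368 in the Sham samples, and Plin4, a coat protein of lipid droplets, had 33359.8, 8422, 17667 and 20024 in the KPC samples, against 3049.7, 3175, 2929 and 5635 in the Sham samples. Neither gene overlapped between groups (log2 fold change 2.80 ± 0.50 SE, limma adjusted p = 0.0379 for Slc25a34, and log2 fold change 2.32 ± 0.38 SE, limma adjusted p = 0.0371 for Plin4). Acer2, an alkaline ceramidase of the Golgi, rose by 2.33 log2 units, and Slc10a6, a transporter of sulphated steroids, by 1.99 (limma adjusted p = 0.0454 and 0.0449). For mt-Tf, the mitochondrial phenylalanine tRNA, the value is uncertain because the gene is so short (log2 fold change 2.42 ± 0.34 SE, limma adjusted p = 0.0255).

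The 15 largest decreases under the same limits included Tfrc, Foxo6 and Arnt2. Tfrc (chromosome 16, 32608920 to 32632794), the transferrin receptor, had 232, 846, 524 and 134 in the KPC samples, against 4847, 3709.9, 4622 and 6633 in the Sham samples. KPC replicate 4 was lowest and KPC replicate 2 highest of its group, still far under every Sham value (log2 fold change -3.82 ± 0.49 SE, limma adjusted p = 0.0255). Foxo6, a forkhead factor related to the FOXO proteins of atrophy, had 6.38, 81.1, 43.2 and 9.68 in the KPC samples, against 327, 262, 272 and 271 in the Sham samples, with replicate 2 nearest the Sham values and replicates 1 and 4 nearly without reads (log2 fold change -3.61 ± 0.66 SE, limma adjusted p = 0.0398). Nmrk2 (chromosome 10, 81198170 to 81202051), a muscle nicotinamide riboside kinase of NAD synthesis, had 235, 883, 627 and 343 in the KPC samples, against 5418, 2630.3, 2944 and 3704 in the Sham samples (log2 fold change -2.94 ± 0.40 SE, limma adjusted p = 0.0255). Map3k7cl (-3.43), Arnt2, a partner of basic helix-loop-helix factors (-3.51), Tceal7 (-2.81), Lrtm2 (-2.67), Dok5, an adaptor of receptor tyrosine kinases (-2.62), and Mdga1, a cell adhesion protein (-2.67), also fell, as log2 fold changes. Their adjusted p-values by limma were 0.0255, 0.0379, 0.0255, 0.0433, 0.0255 and 0.0379. Col22a1, a collagen of the muscle-tendon junction, had 200.2, 225, 63.8 and 74.4 in the KPC samples, against 370.0, 1189, 1288 and 611 in the Sham samples (log2 fold change -2.65 ± 0.51 SE, limma adjusted p = 0.0433), and Adamts20, a secreted metalloproteinase, had a log2 fold change of -2.57 (limma adjusted p = 0.0321). Irx3os also fell (-2.98), and its value is uncertain because it lies antisense to its neighbour and whether counting used strand is not stated in the labels or headers.

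**Figure D2:**
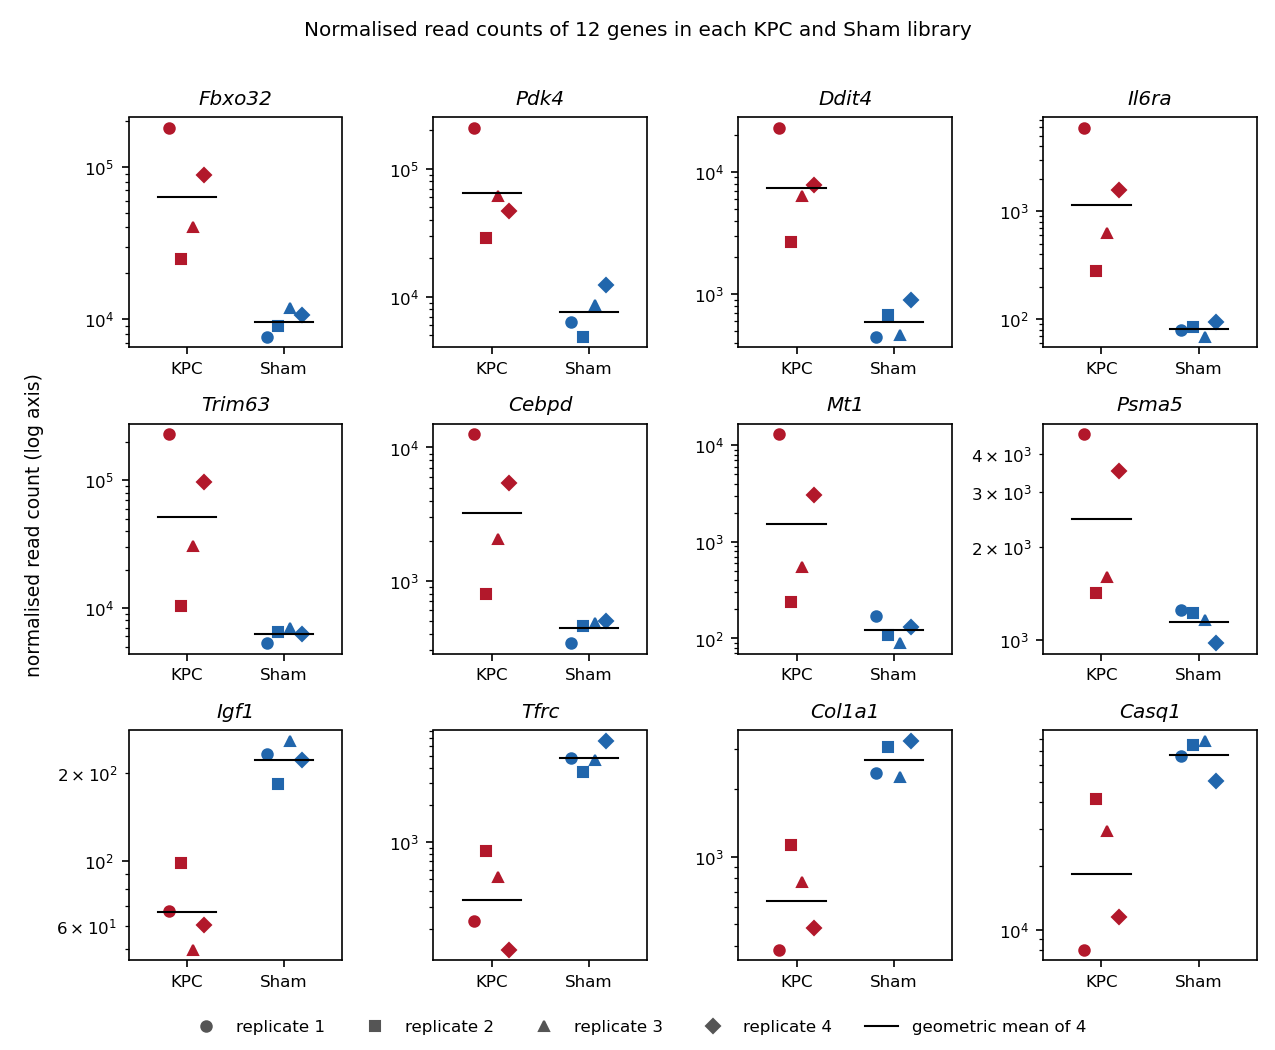
Normalised read counts (log axis) of 12 genes in the KPC libraries (left in each panel) and the Sham libraries (right). Each marker shape is a replicate number and the line is the geometric mean of 4 libraries. The groups do not overlap in any panel, and KPC replicate 1 is the highest library for Fbxo32, Trim63, Cebpd and Mt1 with KPC replicate 2 nearest the Sham values in those 4 panels.

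The genes were next taken in lists by role, some of which share members. For each list the counts of calls and the median log2 fold change stand beside the shares of called genes and the median over all genes given above. In these paragraphs a number in parentheses straight after a gene name is the log2 fold change, KPC over Sham, of a member that limma did not call.

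Receptors and outputs of the interleukin-6 family came first among the inputs to the muscle. Of 20 tested members (25 in the list), 3 rose, all of them receptor chains, and 0 fell, while the authors' deposited table called 8 higher and 1 lower; the median log2 fold change was 0.52. Osmr, the oncostatin M receptor, had 309.9, 323, 388 and 270.2 in the KPC samples, against 101, 172, 115 and 161 in the Sham samples, and Il4ra, the interleukin-4 receptor chain that the list also holds, had 444, 227, 376 and 313 in the KPC samples, against 106, 132, 151 and 115 in the Sham samples. Both groups were tight for these receptors and did not overlap (log2 fold change 1.25 ± 0.23 SE, limma adjusted p = 0.0379 for Osmr, and log2 fold change 1.40 ± 0.24 SE, limma adjusted p = 0.0373 for Il4ra). Stat3, the transcription factor activated by these receptors, had 1970.2, 1404, 1799.8 and 1917 in the KPC samples, against 924, 1257, 1114 and 1162 in the Sham samples, without overlap but short of the threshold (log2 fold change 0.67 ± 0.18 SE, limma adjusted p = 0.0866). Socs3, the feedback inhibitor that STAT3 induces, had 96.9, 82.2, 77.8 and 101 in the KPC samples, against 65.5, 58.7, 52.4 and 42.04 in the Sham samples (log2 fold change 0.71, limma adjusted p = 0.121). Lcn2, an acute phase lipocalin, had 279, 10.95, 10.8 and 211 in the KPC samples, against 9.07, 8.38, 10.7 and 5.87 in the Sham samples, high in KPC replicates 1 and 4 and near the Sham level in KPC replicates 2 and 3. Serpina3n (1.66), a serine protease inhibitor of the acute phase, overlapped between groups.

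NF-kB factors and interferon response genes held 1 limma call between them. Of 16 NF-kB genes 0 rose and 1 fell, Traf3, an adaptor that restrains non-canonical NF-kB signalling. It had 418, 489.7, 364 and 355 in the KPC samples, against 661, 902, 959 and 863 in the Sham samples, with no overlap (log2 fold change -1.05 ± 0.18 SE, limma adjusted p = 0.0379). Nfkbia, the inhibitor that NF-kB itself induces, had a log2 fold change of 0.85 (limma adjusted p = 0.133) and Tnfaip3, another inhibitor, -1.62 (limma adjusted p = 0.0684). Nfkb2 (0.46), a precursor of the non-canonical factor, overlapped between groups. Tnfrsf12a, the receptor of TWEAK, had 1655, 107, 166 and 1289.8 in the KPC samples, against 576, 424, 539 and 188 in the Sham samples, with KPC replicates 1 and 4 above and KPC replicates 2 and 3 below every Sham value (log2 fold change 0.16, limma adjusted p = 0.917). The list's median was 0.34, or 0.61 without KPC replicate 2, with 2 genes higher and 2 lower in the authors' deposited table. Limma called 0 of 24 interferon response genes (28 in the list) and the authors' deposited table called 2 lower. Their median was -0.67, or -0.23 without KPC replicate 1. The list's mean deviation from Sham was -1.64, -0.03, -0.37 and -0.46 in the 4 KPC samples. Gbp3, an interferon-induced GTPase, had 12.8, 75.6, 46.5 and 32.00 in the KPC samples, against 96.8, 93.9, 94.1 and 108 in the Sham samples, lowest in KPC replicate 1. Usp18 (-1.14), a deconjugase of ISG15, and Gbp7 (-1.03), another such GTPase, also lay below the Sham range, whereas Irf7 (-0.46) and Isg15 (0.06) overlapped. Genes of the immunoproteasome and MHC class I had a median of -0.49 (-0.22 without KPC replicate 1). Limma called 0 of 13, and 1 was lower in the authors' deposited table. B2m, the light chain of MHC class I, had 722, 857, 788 and 849 in the KPC samples, against 1215, 1119.8, 1028 and 1191 in the Sham samples (log2 fold change -0.50, limma adjusted p = 0.108). The heavy chain gene H2-K1 (-0.24), the peptide transporter Tap1 (-0.87) and the immunoproteasome subunits Psmb8 (-0.65) and Psmb10 (-0.89) overlapped.

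Glucocorticoid-responsive genes had the second highest median of the lists with at least 5 tested members, 1.48, and lay above the Sham mean in each KPC library, by 3.16, 0.60, 1.31 and 1.72 on average. Of 18 members 2 rose, Ddit4 and Glul, and 0 fell. The authors' deposited table called 12 higher, and in 12 every KPC value lay above every Sham value. Glul, glutamine synthetase, had 60874, 8563, 15206 and 15648 in the KPC samples, against 2783, 3814, 2858 and 4118 in the Sham samples (log2 fold change 2.49 ± 0.49 SE, limma adjusted p = 0.0461). Cebpd, a C/EBP transcription factor, had 12518, 793, 2065 and 5405 in the KPC samples, against 339, 457, 482 and 503 in the Sham samples, a graded series in which KPC replicate 2 was nearest Sham and replicate 1 farthest. It passed the threshold in the authors' deposited table (log2 fold change 3.54, adjusted p = 2.53e-06) but not by limma (adjusted p = 0.0716). Klf15, a Krüppel-like factor of amino acid breakdown, had 6015, 1336, 2167 and 2932 in the KPC samples, against 673, 860.0, 715 and 884 in the Sham samples (log2 fold change 1.78 ± 0.38 SE, limma adjusted p = 0.054). Fkbp5, a co-chaperone of the glucocorticoid receptor, had 15928, 1594, 3407 and 5601 in the KPC samples, against 989, 1039, 863 and 818 in the Sham samples (log2 fold change 2.34 ± 0.56 SE, limma adjusted p = 0.0716). Tsc22d3, which encodes GILZ, had 8581, 5139, 6260.0 and 5022 in the KPC samples, against 4167, 4237, 4032 and 4224 in the Sham samples, a small difference without overlap (log2 fold change 0.55, limma adjusted p = 0.14). Per1, a clock gene also induced by glucocorticoids, overlapped between groups (log2 fold change 1.37, limma adjusted p = 0.108).

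In the myostatin, activin and BMP list, Gdf11 fell and the median was 0.00 (-0.06 to 0.05 with 1 library left out) over 24 tested members of 27; the authors' deposited table called 2 higher and 5 lower. Gdf11, the closest relative of myostatin, had 31.9, 127, 46.5 and 41.7 in the KPC samples, against 222, 577, 614 and 293 in the Sham samples. Its KPC values lay at the bottom of the range in 3 libraries and higher in replicate 2, all under the lowest Sham value (log2 fold change -2.85 ± 0.46 SE, limma adjusted p = 0.0371). Mstn, myostatin itself, had 5166, 1156, 1105 and 1182 in the KPC samples, against 522, 921, 892 and 561 in the Sham samples. Here 3 KPC values lay just above the Sham range and KPC replicate 1 alone was far higher (log2 fold change 1.25 ± 0.47 SE, limma adjusted p = 0.156). Tgfb2, a TGF-beta ligand, had 91.8, 460.1, 316 and 263 in the KPC samples, against 613, 726, 831 and 575 in the Sham samples and Acvr1, a type I receptor of BMPs, had 179.8, 379, 288 and 185 in the KPC samples, against 431, 505, 536 and 426 in the Sham samples, both without overlap (log2 fold changes -1.48, limma adjusted p = 0.0999, and -0.94, limma adjusted p = 0.0909). Acvr2b, the type II receptor of myostatin, and Fst, its antagonist follistatin, overlapped between groups (-0.11 and 0.36 on the log2 scale). So did Smad3 (-1.42), a transducer of these receptors, and Id1 (0.11), a target of BMP signals. The median was -0.01 after TMM rescaling.

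In the IGF-1, insulin and mTORC1 list the ligand fell and an inhibitor rose. Igf1 (chromosome 10, 87858265 to 87937042) had 67.6, 98.6, 49.7 and 60.3 in the KPC samples, against 232, 183, 257 and 221 in the Sham samples, with every KPC value below the Sham range by a wide margin (log2 fold change -1.71 ± 0.24 SE, limma adjusted p = 0.0255). The inhibitor was Ddit4. Of 28 members, limma called these 2, and 6 were higher and 1 lower in the authors' deposited table. Sesn1, a sestrin that restrains mTORC1, had 14387, 920.2, 1762 and 3185 in the KPC samples, against 359.9, 427, 377 and 478 in the Sham samples, and Irs2, the insulin receptor substrate that FOXO factors induce, had 4888, 593, 1079.9 and 1727 in the KPC samples, against 313, 506, 452 and 608 in the Sham samples. Both were highest in KPC replicate 1, and only Irs2 overlapped (log2 fold change 2.84 ± 0.67 SE, limma adjusted p = 0.0702 for Sesn1 and log2 fold change 1.74 ± 0.54 SE, limma adjusted p = 0.116 for Irs2). Igf1r, the receptor, had 1329, 516, 616 and 511 in the KPC samples, against 262, 456, 423 and 405 in the Sham samples (log2 fold change 0.85, limma adjusted p = 0.156), and Deptor, an mTOR inhibitor, overlapped (-0.78, limma adjusted p = 0.272). Pik3ip1 (0.78), an inhibitor of PI3-kinase, lay above the Sham range, and Ddit4l (-0.53), the relative of Ddit4, overlapped. The median was 0.24, or 0.04 without KPC replicate 1.

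In the list of atrophy ubiquitin ligases and FOXO factors Fbxo32 rose and Foxo6 fell. Fbxo32 (chromosome 15, 58175879 to 58214932), which encodes atrogin-1, had 179411, 25034, 40532 and 88116 in the KPC samples, against 7677, 9067, 11908 and 10616 in the Sham samples. Even KPC replicate 2 lay above the highest Sham value (log2 fold change 2.71 ± 0.51 SE, limma adjusted p = 0.0432). Trim63 (chromosome 4, 134315120 to 134329629), which encodes MuRF1, had 229037, 10415, 30906 and 97844 in the KPC samples, against 5283, 6554, 7041 and 6263 in the Sham samples, a wider spread in which KPC replicate 2 was nearest the Sham range. Its difference passed in the authors' deposited table (log2 fold change 3.87, adjusted p = 1.50e-06) and not by limma (log2 fold change 3.05 ± 0.76 SE, limma adjusted p = 0.0809). Foxo1 had 3539, 474, 1322 and 1859 in the KPC samples, against 335, 391, 408 and 471 in the Sham samples and Foxo3 had 4422, 845, 1532 and 1463 in the KPC samples, against 429, 582, 495 and 616 in the Sham samples; both are FOXO factors that activate these ligases. They kept the same order of KPC libraries at the extremes, without overlap (log2 fold changes 1.84, limma adjusted p = 0.0901, and 1.69, limma adjusted p = 0.078). Over the 24 ligases and FOXO genes 1 rose and 1, Foxo6, fell, 9 were called higher and 1 lower in the authors' deposited table, and the median was 0.33, or 0.21 without KPC replicate 1.

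All 32 proteasome subunits and activators had positive log2 fold changes, with a median of 0.74, but limma called 0, and 7 were higher in the authors' deposited table. The list's mean deviation from Sham was 1.45, -0.04, 0.10 and 1.29 in the KPC samples, so KPC replicates 1 and 4 carried the difference and replicates 2 and 3 were at the Sham level. Psma5, a subunit of the core particle, had 4616, 1417, 1596 and 3507 in the KPC samples, against 1254, 1219.6, 1157 and 975 in the Sham samples (log2 fold change 1.10 ± 0.36 SE, limma adjusted p = 0.125). Psmd11, a lid subunit of the regulatory particle, had 12087, 2389, 2921 and 7217 in the KPC samples, against 1997, 2141, 2155 and 1962 in the Sham samples (log2 fold change 1.27 ± 0.45 SE, limma adjusted p = 0.141). In both genes the groups did not overlap, yet KPC replicates 2 and 3 were close to the Sham values. Psmc6 (0.86), an ATPase of the regulatory particle, also lay above the Sham range, and Psme4 (0.53), the activator PA200, overlapped. Without KPC replicate 1 the median of the list was 0.47. Ubiquitin and its activating and conjugating enzymes had a median of 0.16 over 18 genes (-0.02 after quantile normalisation) with 0 limma calls and 6 higher in the authors' deposited table. Ubb (0.97), a polyubiquitin gene, and Ube2b (0.21), a conjugating enzyme of muscle, overlapped between groups. The conjugating enzymes Ube2g1 (0.49) and Ube2j1 (0.49), the latter of the endoplasmic reticulum, lay above the Sham range.

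Autophagy and lysosome genes were positive in 23 of 26 members, with a median of 0.46 (0.30 without KPC replicate 4), 0 limma calls and 9 higher in the authors' deposited table. Gabarapl1, a GABARAP-family protein of autophagosome membranes, had 15291, 1210.5, 1968 and 4283 in the KPC samples, against 766, 743, 829.6 and 816 in the Sham samples (log2 fold change 2.16 ± 0.63 SE, limma adjusted p = 0.105). Bnip3, a receptor of mitophagy, had 36714, 4277, 5125 and 9302 in the KPC samples, against 3136, 2981, 3007 and 2778 in the Sham samples (log2 fold change 1.65 ± 0.56 SE, limma adjusted p = 0.133). Both lay without overlap, with KPC replicate 1 several times above the other KPC samples and replicate 2 lowest. Map1lc3b, which encodes LC3B, had 14298, 4623, 5581 and 11365 in the KPC samples, against 3939.9, 3568, 3593 and 3385 in the Sham samples, and Ctsl, a lysosomal protease, had 10019, 2480.1, 2705 and 5869 in the KPC samples, against 2113, 2079, 1895 and 1645 in the Sham samples (log2 fold changes 1.15, limma adjusted p = 0.104, and 1.21, limma adjusted p = 0.127). Ulk1 (1.24), the kinase that starts autophagy, and Atg14 (0.76), a subunit of the lipid kinase complex, were also above the Sham range in each KPC sample. The median was 0.30 without KPC replicate 4 and 0.31 without KPC replicate 1.

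Genes of protein synthesis had mostly positive log2 fold changes, in 25 of 28 translation factors and ribosome biogenesis genes. Among them limma called 0, the authors' deposited table called 9 higher and 0 lower, and the median was 0.44 (0.26 without KPC replicate 1). Eef2, the elongation factor of translocation, had 63926, 47635, 53938 and 59216 in the KPC samples, against 35715, 38431, 39289 and 34477 in the Sham samples (log2 fold change 0.60 ± 0.15 SE, limma adjusted p = 0.0835), and Npm1, a nucleolar protein of ribosome assembly, had 5797, 2899.6, 2877 and 4115 in the KPC samples, against 2209, 2011, 1902 and 1874 in the Sham samples (log2 fold change 0.91 ± 0.23 SE, limma adjusted p = 0.0842). The KPC and Sham values did not overlap for either gene, and the KPC replicates spread less than for the ligases. Eif4ebp1, the translation repressor 4E-BP1, had 12095, 1366, 2229 and 11321 in the KPC samples, against 907, 1145, 1015 and 690.2 in the Sham samples, high in replicates 1 and 4 (log2 fold change 2.29 ± 0.65 SE, limma adjusted p = 0.0999). The scaffold Eif4g3 (0.68) and Myc (1.19), a factor that drives ribosome synthesis, lay above the Sham range, Eif4e (-0.57), the cap-binding protein, lay below it, and the scaffold Eif4g1 (0.38) overlapped. The 24 ribosomal protein genes had a median of 0.26, which was 0.02 without KPC replicate 4, and 0 calls by limma or in the authors' deposited table. Rpl3l, the muscle form of Rpl3, had 8937, 12286, 11969 and 12026 in the KPC samples, against 17113, 12727, 13794 and 12452 in the Sham samples (log2 fold change -0.31, limma adjusted p = 0.289), and Rpl3 overlapped between groups (0.54, limma adjusted p = 0.339), as did Rpl4 (0.40), Rpl5 (0.47) and Rps6 (0.50). Ribosomal protein genes have many processed copies in the genome, so their counts are uncertain.

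Transcripts of stress defence were higher in some KPC samples by large factors. Metallothioneins are small cysteine-rich proteins that bind zinc and copper, and their genes are known to be induced by zinc, through the factor MTF-1 at metal response elements, and by glucocorticoids. Mt1 had 12947, 239.9, 556 and 3093 in the KPC samples, against 169, 109.8, 88.7 and 130.0 in the Sham samples, and Mt2 had 7340.2, 43.8, 92.96 and 1410.4 in the KPC samples, against 25.2, 37.7, 20.3 and 41.1 in the Sham samples. No KPC value lay within the Sham range, but KPC replicates 1 and 4 were far higher than replicates 2 and 3. The log2 fold changes were 3.64 and 3.89 (limma adjusted p = 0.0965 and 0.137), and both were called higher in the authors' deposited table (adjusted p = 0.000244 and 0.000249). Slc39a14, a zinc and iron importer, had 13331, 294, 601 and 1321 in the KPC samples, against 238, 264, 308 and 342 in the Sham samples, where KPC replicate 1 stood apart and KPC replicate 2 was within the Sham range.

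The 2 metallothionein genes are neighbours with their high values in the same KPC samples, and their promoter windows are shown because both hold the letters of the metal response element. The windows run from 250 bases before to 50 bases after the start of the gene and come from RefSeq (GRCm38.p6). Capitals mark TGCACNC or TGCGCNC, searched on both strands, where a match on the other strand reads GNGTGCA or GNGCGCA.
Mt1 (chr8:94178839-94179138, plus strand): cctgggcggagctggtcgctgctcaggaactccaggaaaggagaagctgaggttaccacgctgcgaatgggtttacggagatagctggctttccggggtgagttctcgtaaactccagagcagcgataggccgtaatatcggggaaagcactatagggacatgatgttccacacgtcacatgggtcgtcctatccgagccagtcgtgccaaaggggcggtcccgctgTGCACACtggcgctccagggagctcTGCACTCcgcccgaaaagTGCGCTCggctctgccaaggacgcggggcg
Mt2 (chr8:94172368-94172667, plus strand): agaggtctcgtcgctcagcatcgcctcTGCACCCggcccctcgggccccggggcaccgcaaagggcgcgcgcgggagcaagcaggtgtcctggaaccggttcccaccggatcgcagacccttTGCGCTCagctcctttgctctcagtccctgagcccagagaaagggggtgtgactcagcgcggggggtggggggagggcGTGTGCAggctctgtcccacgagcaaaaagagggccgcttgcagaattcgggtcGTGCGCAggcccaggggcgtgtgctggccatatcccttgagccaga
Trim63 (chr4:134314870-134315169, plus strand): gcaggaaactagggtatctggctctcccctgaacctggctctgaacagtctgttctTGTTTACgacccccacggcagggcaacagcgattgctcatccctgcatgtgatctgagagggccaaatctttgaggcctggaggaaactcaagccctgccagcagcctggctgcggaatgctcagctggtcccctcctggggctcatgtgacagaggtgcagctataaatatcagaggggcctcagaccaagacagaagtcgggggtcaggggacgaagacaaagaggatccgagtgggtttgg
The Mt1 window held 3 matches and the Mt2 window 4, none overlapping another. At least 1 match was present in 25.7% of the 32851 windows searched, so the letters are common. A gene can have more than 1 window, and it was counted if any of them held a match. Counted so, 40.7% of 10041 tested genes with a window held a match. The same count gave 7 of 34 genes called higher and 39 of 81 called lower that had a window. The window of Trim63 is shown for the forkhead core TGTTTAC, searched on both strands, which FOXO factors can bind and which occurred once, at position -194 from the gene start. That core was present in 3.65% of all windows, in 3.20% of tested genes, in 1 of 34 called higher and in 1 of 81 called lower that had a window. A match describes these letters only.

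In the list of NRF2, antioxidant and metallothionein genes 1 of 23 rose, Cat, which encodes catalase. Cat had 6334, 3087, 3492 and 4950.2 in the KPC samples, against 1477, 1290.0, 1448 and 1937 in the Sham samples, with the lowest KPC value well above the highest Sham value (log2 fold change 1.50 ± 0.25 SE, limma adjusted p = 0.0371). The authors' deposited table called 12 higher and 1 lower, and the median was 0.72. Hmox1, the heme oxygenase induced by oxidants, had 1298, 125, 148 and 790.4 in the KPC samples, against 67.5, 101, 79.1 and 86.03 in the Sham samples, highest in replicates 1 and 4 (log2 fold change 2.16 ± 0.68 SE, limma adjusted p = 0.119). Gpx3, a secreted glutathione peroxidase, had 4868, 4954, 4186 and 8400.0 in the KPC samples, against 3368, 2678, 1992 and 2661 in the Sham samples (log2 fold change 1.04 ± 0.25 SE, limma adjusted p = 0.0721), and Sod3, the extracellular superoxide dismutase, was lower in every KPC sample without passing (log2 fold change -1.12 ± 0.27 SE, limma adjusted p = 0.0736). Nqo1 (0.87), a quinone reductase and NRF2 target, lay above the Sham range. Iron genes were split. Slc40a1, the iron exporter ferroportin, had 2118, 1847, 1799.8 and 1878 in the KPC samples, against 1221, 1075, 1037 and 1152 in the Sham samples, with narrow groups that did not overlap (log2 fold change 0.77 ± 0.15 SE, limma adjusted p = 0.0433). Set beside Tfrc, the importer fell and the exporter rose, while Fth1, the ferritin heavy chain, overlapped between groups (log2 fold change 0.24, limma adjusted p = 0.496) and the median of 15 iron genes was 0.01 (-0.0019 after TMM rescaling and -0.07 after quantile normalisation). Steap3 (-1.62), an iron reductase of endosomes, was below the Sham range, and Mb (-0.11), myoglobin, and Ncoa4 (0.08), the ferritin receptor of autophagy, overlapped.

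In the integrated stress response, Gadd45a, a growth arrest gene that ATF4 induces in wasting mouse muscle, rose. It had 4792, 1081, 1699 and 4292 in the KPC samples, against 608, 570.0, 454 and 544 in the Sham samples, with KPC replicates 1 and 4 high (log2 fold change 2.19 ± 0.43 SE, limma adjusted p = 0.0454). Atf4, the central factor of this response, had 13297, 4389, 5114 and 9579.7 in the KPC samples, against 4486, 3646, 3627 and 2885 in the Sham samples, with KPC replicate 2 inside the Sham range (log2 fold change 1.02 ± 0.34 SE, limma adjusted p = 0.127). Ddit3, which encodes CHOP, had 320.1, 288, 225 and 273 in the KPC samples, against 566, 389.8, 356 and 349 in the Sham samples, lower in each KPC sample (-0.57, limma adjusted p = 0.149), and Trib3, a pseudokinase induced by ATF4, overlapped (0.42, limma adjusted p = 0.654). Vldlr (0.80), a lipoprotein receptor induced by ATF4, lay above the Sham range. Of 22 tested members 1 rose and 0 fell, the authors' deposited table called 6 higher, and the median was 0.38 (0.18 without KPC replicate 1). Heat shock and chaperone genes had a median of 0.19 (0.07 to 0.30 with 1 library left out, the ends being without KPC replicates 4 and 3, and 0.07 after quantile normalisation) and 0 of 20 limma calls, with 1 lower in the authors' deposited table. Hsp90ab1 (0.65), a cytosolic HSP90, was above the Sham range and Hspb6 (-0.58), a small heat shock protein of muscle, below it. Hspa8 (0.01), the constitutive HSC70, Cct2 (0.67), a chaperonin subunit, the co-chaperone Bag3 (0.57) and Hspb1 (0.84) overlapped, the last of these with KPC replicates 1 and 4 far above the other libraries.

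Amino acid genes held 2 of 26 called higher, Glul and Slc43a1, a transporter of large neutral amino acids. Slc43a1 had 1886, 812, 1173 and 1399 in the KPC samples, against 469, 513, 497 and 465 in the Sham samples, with a narrow Sham group and every KPC value above it (log2 fold change 1.37 ± 0.24 SE, limma adjusted p = 0.0379). Slc7a2, a carrier of arginine and lysine, had 14566, 3063, 5366 and 5383 in the KPC samples, against 1161, 2189, 1689 and 1776 in the Sham samples (log2 fold change 1.85 ± 0.41 SE, limma adjusted p = 0.0609). Bcat2, the first enzyme of branched-chain amino acid breakdown, had 1785, 1655, 1762 and 1679 in the KPC samples, against 1407, 1215, 1196 and 1076 in the Sham samples, a small difference with no overlap (log2 fold change 0.50 ± 0.15 SE, limma adjusted p = 0.111). Slc38a2 (0.64), a glutamine and alanine transporter, was above the Sham range, and Slc7a5 (1.36), a leucine transporter, overlapped. The authors' deposited table called 9 higher, and the median was 0.50. In polyamine metabolism limma called 0 of 13 genes, and 2 were lower in the authors' deposited table. Smox, spermine oxidase, had 1788, 5449, 4988 and 1644 in the KPC samples, against 12275, 12784, 14667 and 6959 in the Sham samples, without overlap (log2 fold change -1.91 ± 0.42 SE, limma adjusted p = 0.0601). Amd1, which makes the propylamine donor, had 1780.2, 12696, 8537 and 3041 in the KPC samples, against 17323, 19819, 22603 and 11742 in the Sham samples, with KPC replicate 2 inside the Sham range and replicate 1 lowest (log2 fold change -1.82 ± 0.54 SE, limma adjusted p = 0.109). Amd2 (-1.80) is a near-identical copy of Amd1, so the split between them is uncertain. Odc1 (0.42), which makes putrescine, and Sat1 (0.74), which acetylates polyamines, overlapped.

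Fatty acid genes had 4 members that rose out of 31 tested (Pdk4, Ucp3, Acot1 and Acot2) and none that fell, while the authors' deposited table called 17 higher and 0 lower. In 19 of the 31 every KPC value exceeded every Sham value, and the median log2 fold change was 0.64. Ucp3, a mitochondrial carrier that fasting induces in muscle, had 13919, 5430.1, 11236 and 8295 in the KPC samples, against 2608, 2016, 2954 and 3982 in the Sham samples, with replicates 1 and 3 highest (log2 fold change 1.71 ± 0.31 SE, limma adjusted p = 0.0379). Angptl4, a PPAR target that inhibits lipoprotein lipase, had 446, 72.3, 115 and 176 in the KPC samples, against 42.3, 32.7, 21.4 and 38.1 in the Sham samples (log2 fold change 2.26 ± 0.49 SE, limma adjusted p = 0.0571). Slc25a20, the carnitine-acylcarnitine carrier, had 3115, 2560.0, 2669 and 2868 in the KPC samples, against 2528, 1414, 1711 and 2069 in the Sham samples, nearly equal in the KPC libraries (log2 fold change 0.57, limma adjusted p = 0.14). Cpt1a, the liver form of carnitine palmitoyltransferase, overlapped between groups (0.10, limma adjusted p = 0.859). The list's mean deviation was 1.52, 0.63, 0.89 and 1.11 in the KPC samples and 0.26, -0.38, -0.19 and 0.31 in the Sham samples, so replicate 2 shared in it.

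Other energy lists had medians nearer that of all genes. Limma and the authors' deposited table each called 0 of 29 nuclear subunits of oxidative phosphorylation, whose median was -0.15 (0.02 without KPC replicate 1). Cycs (-0.62), Cyc1 (-0.48), Sdhd (-0.47), Cox4i1 (-0.08) and Sdha (0.11) overlapped. Of 13 mitochondrially encoded subunits 1 rose, mt-Nd3, a short subunit of complex I. It had 5809.9, 3133, 3909.9 and 4652 in the KPC samples, against 2246, 1132, 1499.9 and 1967 in the Sham samples (log2 fold change 1.37 ± 0.26 SE, limma adjusted p = 0.0433), while mt-Co1 of complex IV overlapped (0.09, limma adjusted p = 0.82), as did mt-Cytb (0.00), mt-Atp6 (0.29) and mt-Atp8 (0.52). The median of the 13 was 0.09, at 0.28 without KPC replicate 4 and -0.00017 without KPC replicate 2. Among 20 mitochondrial regulators limma called 0, and 1 was higher and 1 lower in the authors' deposited table, with a median of 0.02 (-0.11 to 0.17 with 1 library left out and -0.14 after quantile normalisation). Ppargc1a, which encodes the coactivator PGC-1 alpha, also overlapped (-0.24, limma adjusted p = 0.471). Its relative Ppargc1b had 36.98, 219, 185 and 89.3 in the KPC samples, against 319.6, 288, 299 and 385 in the Sham samples, and Perm1, a muscle regulator downstream of these coactivators, had 1219, 5751, 5029.8 and 2764 in the KPC samples, against 9519, 6683, 6899.9 and 8849 in the Sham samples. Both were below the Sham range in all 4 KPC libraries and lowest in replicate 1 (log2 fold change -1.57 ± 0.48 SE, limma adjusted p = 0.114 for Ppargc1b, and log2 fold change -1.33 ± 0.43 SE, limma adjusted p = 0.124 for Perm1). Esrra (-0.88), a nuclear receptor that works with them, was also below it, Pprc1 (0.90), a related coactivator, was above it, and Ppara (0.60) overlapped. In glycolysis and glycogen metabolism limma called 0 of 28 genes, and 1 was higher and 5 lower in the authors' deposited table. Eno1, an enolase, had 884, 1105, 965 and 1132 in the KPC samples, against 2009, 1785, 1745 and 1453 in the Sham samples, and Tpi1, triose phosphate isomerase, had 21764, 43346, 36827 and 24941 in the KPC samples, against 69366, 58692, 59858 and 50133 in the Sham samples, without overlap (log2 fold changes -0.77, limma adjusted p = 0.0557, and -0.95, limma adjusted p = 0.0762); Eno1 can share reads with its retrocopy Eno1b. Slc2a4 (-0.27), the insulin-responsive glucose transporter GLUT4, was just below the Sham range. Hk2 (-0.03), a hexokinase, Pygm (-0.18), glycogen phosphorylase, Pfkfb3 (0.33) and Txnip (0.52) overlapped. Ppp1r3c, a subunit that directs phosphatase to glycogen, had 8784, 10778, 19153 and 15187 in the KPC samples, against 7195, 7621, 5953 and 6009 in the Sham samples, above the Sham range (log2 fold change 0.95 ± 0.25 SE, limma adjusted p = 0.085).

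In lipid and sterol synthesis 2 of 22 genes fell, both stearoyl-CoA desaturases. Scd1 had 179, 87.6, 95.1 and 59.5 in the KPC samples, against 523, 803, 391 and 569 in the Sham samples, and Scd2 had 54.8, 174, 111 and 124 in the KPC samples, against 463, 447, 309 and 378 in the Sham samples. Neither overlapped between groups (log2 fold change -2.50 ± 0.34 SE, limma adjusted p = 0.0255 for Scd1, and log2 fold change -1.87 ± 0.32 SE, limma adjusted p = 0.0379 for Scd2). Srebf1, the factor that drives such genes, had 557, 944, 993 and 604 in the KPC samples, against 1510.2, 1783, 1691 and 1178 in the Sham samples (log2 fold change -1.02 ± 0.24 SE, limma adjusted p = 0.0683), and Lpin1, a phosphatidate phosphatase and coactivator, lay above the Sham range (log2 fold change 1.07, limma adjusted p = 0.108). Hmgcs1 (-0.48), of cholesterol synthesis, was below it. The authors' deposited table called 3 higher and 6 lower, and the list's median was -0.28, or -0.19 without KPC replicate 4.

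Contractile genes, whose products make up most of the fibre, gave no limma calls. Limma called 0 of 21 fibre-type contractile genes and 0 of 31 sarcomere, Z-disc and costamere genes, against 0 higher and 2 lower, and 1 higher and 0 lower, in the authors' deposited table. Medians were -0.10 and 0.07 on the log2 scale (-0.26 to -0.04 and -0.02 to 0.10 with 1 library left out), and the second was negative after quantile normalisation. Myh1, the heavy chain of fast 2X fibres, Myh2 of 2A fibres and Myh7 of slow fibres overlapped between groups (0.36, -0.95 and -0.34 on the log2 scale). So did Tnnt1 (0.66), slow troponin T. Myl1 (-0.60), the fast essential light chain, and Tpm1 (-0.68), a tropomyosin, lay below the Sham range. Myl2, the regulatory light chain of slow fibres, had 7.65, 6.57, 15.1 and 9.68 in the KPC samples, against 36.3, 21.8, 100.5 and 47.9 in the Sham samples (log2 fold change -2.14 ± 0.47 SE, limma adjusted p = 0.0568). Myom1, an M-band protein, had 94916, 64443, 71724 and 69138 in the KPC samples, against 48352, 53959.8, 55397 and 52578 in the Sham samples, just above the Sham range in the 4 KPC samples (log2 fold change 0.50 ± 0.16 SE, limma adjusted p = 0.126). Ldb3 (-0.81), a Z-disc protein, was below that range. Ttn, titin, overlapped (0.08, limma adjusted p = 0.858), as did Dmd (0.71), dystrophin, Mybpc2 (-0.09), Myom3 (-1.09), Csrp3 (-0.55) and the stretch-responsive Ankrd2 (0.96).

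Genes of excitation-contraction coupling had a median of -0.31 over 25 members, with 0 limma calls and 2 lower in the authors' deposited table. One of these was Casq1, the calcium buffer of the sarcoplasmic reticulum. It had 8026, 41619.8, 29231 and 11477 in the KPC samples, against 66591, 75029.9, 78097 and 50774 in the Sham samples, a wide KPC range that stayed below the Sham range (log2 fold change -1.87 ± 0.46 SE, limma adjusted p = 0.0784). Jph2, a junctophilin that joins the membranes of the triad, had 3319, 21617, 19053 and 8785 in the KPC samples, against 30176, 35468, 32397 and 24686 in the Sham samples, with KPC replicate 2 nearest the Sham range (log2 fold change -1.54 ± 0.50 SE, limma adjusted p = 0.127). Asph, the locus of junctin, was the other (log2 fold change -1.08 ± 0.30 SE, limma adjusted p = 0.098). Clcn1 (-1.28), the muscle chloride channel, overlapped. Ryr1, the calcium release channel, and Scn4a, the muscle sodium channel, overlapped (log2 fold changes 0.20, limma adjusted p = 0.543, and -0.06, limma adjusted p = 0.895). Sln, sarcolipin, an inhibitor of the calcium pump, was at 333, 24.1, 17.3 and 43.2 in the KPC samples, against 34.3, 5.87, 16.04 and 24.4 in the Sham samples, high only in KPC replicate 1.

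Transcripts of the neuromuscular junction and of denervation held 0 of 16 limma calls and 4 higher in the authors' deposited table (20 in the list), with a median of 0.70. Chrna1, the acetylcholine receptor alpha subunit, had 139, 141, 284 and 309 in the KPC samples, against 88.7, 73.8, 50.2 and 112 in the Sham samples, with replicates 3 and 4 high rather than replicate 1 (log2 fold change 1.37 ± 0.35 SE, limma adjusted p = 0.0821). Myog, a myogenic factor that denervation induces, had 71.4, 66.8, 111 and 90.8 in the KPC samples, against 42.3, 41.9, 41.7 and 26.4 in the Sham samples (log2 fold change 1.14 ± 0.27 SE, limma adjusted p = 0.0702). Musk, the kinase of the junction, had 1079, 97.5, 183 and 134 in the KPC samples, against 72.6, 98.1, 119 and 146 in the Sham samples, high only in KPC replicate 1 (log2 fold change 1.09, limma adjusted p = 0.297). Chrnd (1.76), the delta subunit, and Runx1 (1.0), a factor that denervation induces, overlapped, and Chrng, the fetal subunit, was not listed. Satellite cell and myogenic genes had a median of -0.28 (-0.13 without KPC replicate 1), with 0 of 19 called by limma and 2 higher and 2 lower in the authors' deposited table. Pax7, the marker of satellite cells, and Myod1 overlapped between groups (log2 fold changes -1.41, limma adjusted p = 0.155, and -1.60, limma adjusted p = 0.133), as did Mef2c (-1.39) and Myf6 (-0.32). Heyl (-0.87) and Notch3 (-0.72), a Notch target and receptor also found in mural cells, lay below the Sham range.

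Among 20 genes of the clock list, Nr1d1 fell. This gene, which encodes the repressor REV-ERB alpha, had 2805, 2495, 2125 and 1607 in the KPC samples, against 4137, 4871, 4867 and 3905 in the Sham samples. The groups did not overlap (log2 fold change -1.0 ± 0.20 SE, limma adjusted p = 0.0472). Dbp, a clock output factor, had 52.3, 912, 615 and 293 in the KPC samples, against 1254, 1593, 1597 and 1744 in the Sham samples, lowest in KPC replicate 1 and below the Sham range throughout (log2 fold change -2.33 ± 0.72 SE, limma adjusted p = 0.115). Arntl, which encodes BMAL1, had 2028, 389, 375 and 467 in the KPC samples, against 483, 474, 466 and 313 in the Sham samples, with KPC replicate 1 alone high (log2 fold change 0.51, limma adjusted p = 0.507). Tef (0.58), a relative of Dbp, was above the Sham range and Bhlhe41 (-1.54), a clock repressor, below it. The authors' deposited table called 6 higher and 4 lower, and the median was 0.35 (0.19 without KPC replicate 1). The labels do not state the hour of dissection.

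Collagens and their processing enzymes formed the list with the most limma calls. Of 28 tested members (29 in the list) 8 fell and 0 rose, 17 were called lower in the authors' deposited table, in 19 every KPC value lay below every Sham value, and the median was -1.23. In a bulk sample fewer cells of a type and less RNA per cell cannot be told apart. Col1a1 (chromosome 11, 94936224 to 94953042), a chain of fibrillar type I collagen, had 385, 1128, 773 and 482 in the KPC samples, against 2341, 3067, 2264 and 3264 in the Sham samples, and Col3a1 of type III had 393, 1499.6, 1003 and 383 in the KPC samples, against 3492, 3500.4, 2842 and 4134 in the Sham samples. Replicates 1 and 4 were lowest and replicate 2 highest of the KPC group, all below the Sham range (log2 fold change -2.09 ± 0.32 SE, limma adjusted p = 0.0323 for Col1a1, and log2 fold change -2.33 ± 0.41 SE, limma adjusted p = 0.0379 for Col3a1). Col6a2, a chain of the beaded type VI collagen around fibres, had 103, 370.3, 213 and 155 in the KPC samples, against 1173, 945, 847 and 1055 in the Sham samples (log2 fold change -2.40 ± 0.34 SE, limma adjusted p = 0.0255). Col1a2, Col5a1, Col5a2, Col6a1 and the crosslinking oxidase Loxl2 also fell, with log2 fold changes of -1.99, -2.16, -1.46, -2.01 and -1.59 and adjusted p-values of 0.0255, 0.0394, 0.0433, 0.0459 and 0.0371 by limma. Col4a1, of basement membranes, had 1931, 1583, 1673 and 1331 in the KPC samples, against 2523, 2235, 2232 and 3038 in the Sham samples, a smaller gap (log2 fold change -0.62 ± 0.18 SE, limma adjusted p = 0.102). Serpinh1 (-1.18), the collagen chaperone HSP47, lay below the Sham range.

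Of 31 other matrix genes 7 fell and 0 rose (17 lower in the authors' deposited table, median -0.97). Sparc, a collagen-binding glycoprotein, had 2034, 2292, 1779 and 2365 in the KPC samples, against 4661, 4122, 3618 and 4286 in the Sham samples, with both groups narrow (log2 fold change -0.98 ± 0.16 SE, limma adjusted p = 0.0371). Fbn1, the microfibril protein fibrillin-1, had 176, 349, 282 and 116 in the KPC samples, against 536, 862, 684 and 853 in the Sham samples (log2 fold change -1.76 ± 0.33 SE, limma adjusted p = 0.0429). Thbs4, a thrombospondin of muscle attachments, had 596, 795, 396 and 249 in the KPC samples, against 1425, 1618, 1573 and 1859 in the Sham samples (log2 fold change -1.79 ± 0.32 SE, limma adjusted p = 0.0379). The others were the basement membrane genes Lamb1 and Hspg2 and the protease pair Mmp2 and its partner Timp2 (-1.10, -0.97, -1.06 and -0.97 on the log2 scale; limma adjusted p = 0.0379, 0.0433, 0.0394 and 0.0454). Fn1, fibronectin, overlapped between groups (-0.73, limma adjusted p = 0.23), as did Lama2 (-0.63), the laminin chain around fibres, and the inhibitor Timp3 (0.36).

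Markers of cells that make matrix moved with these genes, and their part in the result was not tested. All 9 tested tendon markers (10 in the list, Mkx not listed) had negative log2 fold changes with a median of -1.87, and Tnmd and Thbs4 fell. Of the 9, 8 were lower in the authors' deposited table. The summed count of the list was 423 to 1614 in the KPC samples and 2383 to 3492 in the Sham samples. Tnmd, tenomodulin of the tendon cell surface, had 17.9, 25.2, 7.57 and 4.47 in the KPC samples, against 65.5, 117, 79.1 and 119 in the Sham samples (log2 fold change -2.92 ± 0.48 SE, limma adjusted p = 0.0371), and Kera, a keratan sulphate proteoglycan, had 3.83, 38.3, 1.08 and 0.744 in the KPC samples, against 83.7, 74.6, 67.4 and 208 in the Sham samples, so that in KPC replicates 3 and 4 it was close to 1 (log2 fold change -4.25 ± 0.88 SE, limma adjusted p = 0.0504). Of 15 markers of fibro-adipogenic progenitors, the fibroblast-like cells between fibres, 3 fell (Smoc2, Mfap5 and Fbn1), and 8 were lower in the authors' deposited table. The list had a median of -1.10 and sums of 9103 to 15941 in the KPC samples and 13529 to 19702 in the Sham samples. Smoc2, a matricellular protein, had 520.3, 764, 579 and 538 in the KPC samples, against 1571, 1417, 1009 and 1374 in the Sham samples (log2 fold change -1.16 ± 0.20 SE, limma adjusted p = 0.0371), and Mfap5, of microfibrils, was at -1.63 (limma adjusted p = 0.0371). Pdgfra, the receptor that defines these cells, had 157, 227, 157 and 124 in the KPC samples, against 212, 282, 262 and 342 in the Sham samples, with overlap (log2 fold change -0.73, limma adjusted p = 0.122), and Dpt (-0.98), dermatopontin, lay below the Sham range.

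Of 13 tested adipocyte markers (14 in the list, Lep not listed) 4 fell and 1 rose. Plin1, which coats the lipid droplets of fat cells, had 5.10, 5.48, 5.40 and 3.72 in the KPC samples, against 48.4, 77.1, 22.5 and 55.7 in the Sham samples (log2 fold change -3.02 ± 0.40 SE, limma adjusted p = 0.0255). Cfd, the protease adipsin, had 44.6, 75.6, 95.1 and 83.4 in the KPC samples, against 400.2, 344, 142 and 274 in the Sham samples (log2 fold change -1.90 ± 0.35 SE, limma adjusted p = 0.0413), and Cidec, a droplet fusion protein, 11.5, 12.05, 10.8 and 7.44 in the KPC samples, against 37.3, 54.5, 22.5 and 39.1 in the Sham samples (log2 fold change -1.74 ± 0.34 SE, limma adjusted p = 0.0454). The KPC samples were alike in these genes, and Adipoq, adiponectin, was also below the Sham range in each (log2 fold change -1.83 ± 0.38 SE, limma adjusted p = 0.0514). The others were Scd1, which fell, and Plin4, which rose and which muscle fibres also express. Their median was -1.29, or 0.03 over members with a mean of at least 50, and their summed count, which includes the far more abundant Plin4, was 44656 to 50809 in the KPC samples and 48155 to 80411 in the Sham samples.

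**Figure D3:**
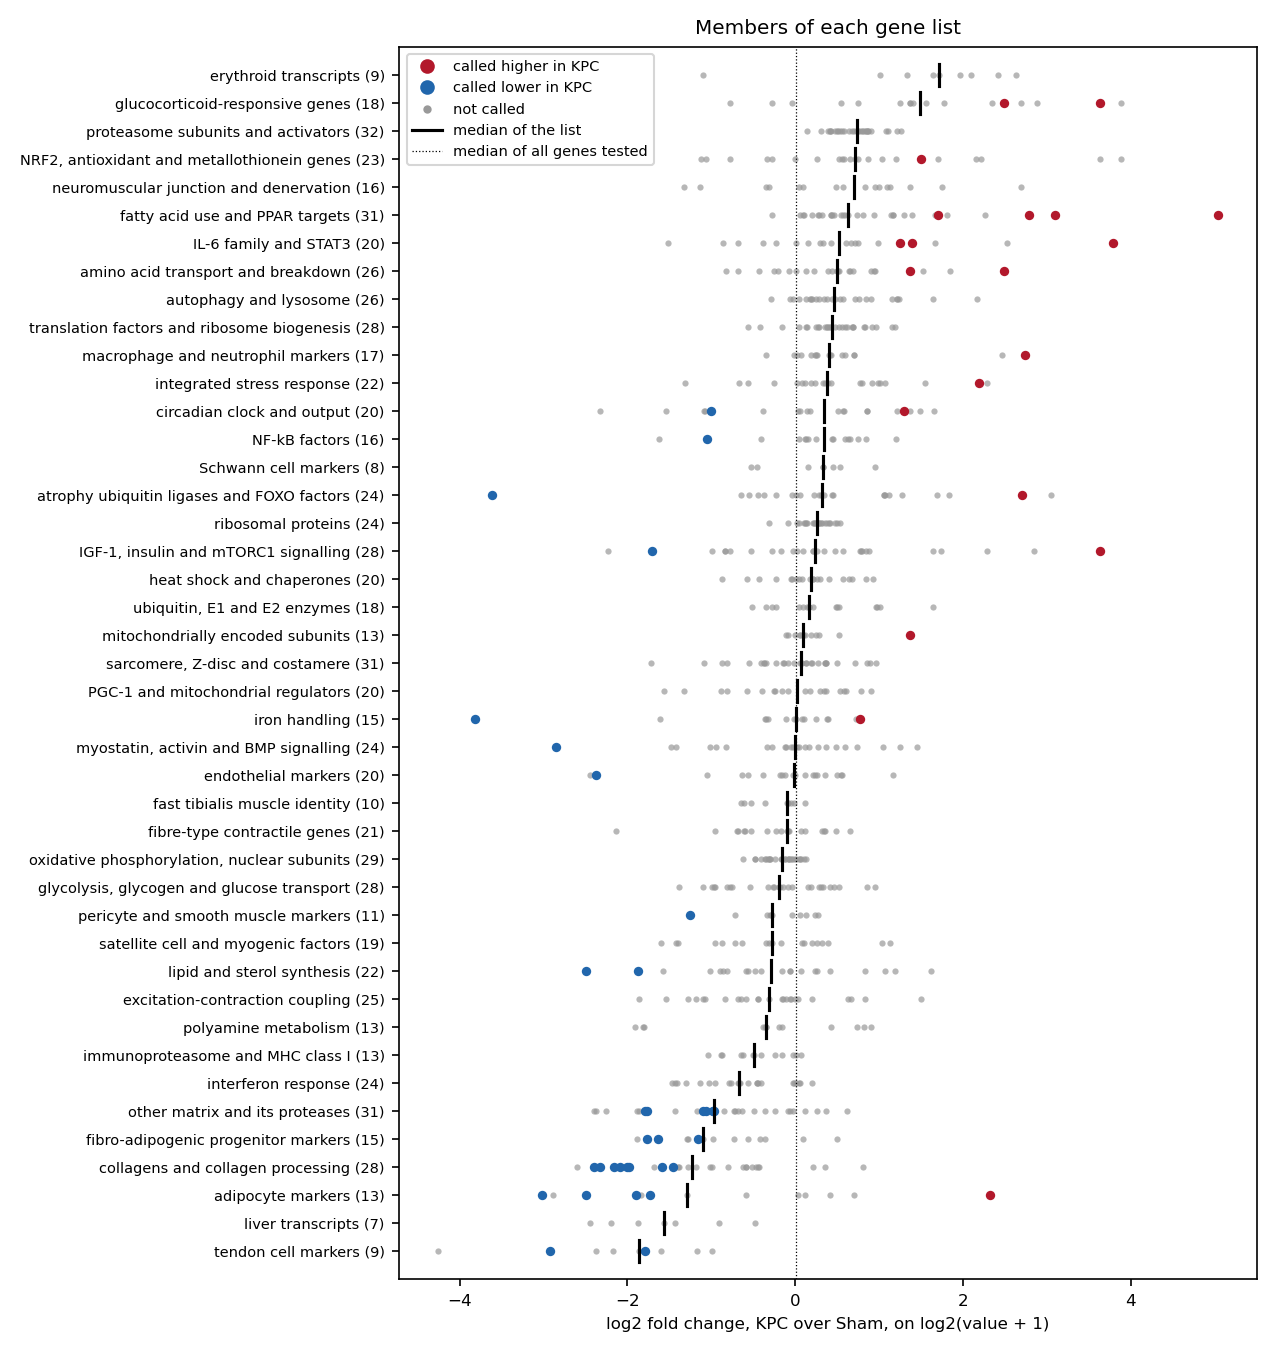
Log2 fold change, KPC over Sham, of each tested member (points) of the lists with at least 5 tested members, whose number is in parentheses. Red points were called higher and blue points lower by limma, black bars are list medians and the dotted line is the median of all genes. The collagen list holds 8 blue points, the most of the lists shown, and all 32 proteasome genes lie above 0 without a call.

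Vessel, blood and immune transcripts were mixed. Of 20 endothelial markers, 2 were higher and 4 lower in the authors' deposited table. By limma 0 rose and 1 fell, with a median of -0.01 (-0.08 to 0.06 with 1 library left out) and overlapping sums (19835 to 25288 in the KPC samples and 19918 to 24096 in the Sham samples). That one was Apln, the ligand apelin, which had 2.55, 13.1, 8.65 and 5.21 in the KPC samples, against 40.3, 39.4, 31.00 and 39.1 in the Sham samples (log2 fold change -2.37 ± 0.43 SE, limma adjusted p = 0.0394), and its receptor Aplnr had 5.10, 118, 54.05 and 42.4 in the KPC samples, against 194, 197, 213 and 187 in the Sham samples (log2 fold change -2.45 ± 0.73 SE, limma adjusted p = 0.108). Cldn5, a tight junction protein, was above the Sham range in each KPC sample (log2 fold change 1.16 ± 0.31 SE, limma adjusted p = 0.0866), while Cdh5, the defining cadherin, overlapped (-0.12, limma adjusted p = 0.666). Pecam1 (0.35), which encodes CD31, was above the Sham range and Kdr (-1.06), the VEGF receptor, below it. Of 11 pericyte and smooth muscle markers 1 fell, Cspg4, the NG2 proteoglycan of pericytes (log2 fold change -1.25 ± 0.24 SE, limma adjusted p = 0.0433). Their median was -0.27 and their sums overlapped (85088 to 116256 in the KPC samples and 81464 to 100657 in the Sham samples), and 2 were lower in the authors' deposited table. Acta2 (-0.34), smooth muscle actin, lay just below the Sham range, and Myh11 (0.27) and Rgs5 (-0.30) overlapped.

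Among 17 tested markers of macrophages and neutrophils S100a9 rose and 0 fell, with a median of 0.40 (0.18 without KPC replicate 4) and sums of 1168 to 2490 in the KPC samples and 988 to 1426 in the Sham samples. S100a9, a calgranulin of neutrophils, had 15.3, 20.8, 48.6 and 98.2 in the KPC samples, against 6.05, 5.03, 4.28 and 2.93 in the Sham samples (log2 fold change 2.74 ± 0.56 SE, limma adjusted p = 0.0494), and its partner S100a8 had 8.93, 10.95, 33.5 and 51.4 in the KPC samples, against 4.03, 4.19, 0 and 7.82 in the Sham samples (log2 fold change 2.47 ± 0.77 SE, limma adjusted p = 0.117). Both were highest in KPC replicate 4, and the macrophage genes Csf1r, Mrc1, C1qa and Fcgr3 overlapped between groups. Cx3cr1 and Ly6c2 were not listed, and 2 of the 17 were higher in the authors' deposited table. Of 12 lymphocyte markers 11 were not listed, among them Cd3e, Cd79a and Igkc, and Ighm, the constant region of IgM, fell. It had 84.2, 275, 133 and 76.7 in the KPC samples, against 521, 904, 1016 and 459 in the Sham samples (log2 fold change -2.45 ± 0.42 SE, limma adjusted p = 0.0371). Erythroid transcripts, a measure of blood in the tissue, had the highest median of the lists with at least 5 tested members, 1.71, with 0 of 9 called by limma and 5 higher in the authors' deposited table. Hbb-bs, a beta globin, had 2978, 1196, 2799.8 and 5210.0 in the KPC samples, against 1646, 355, 500.3 and 1547 in the Sham samples. Sham replicates 1 and 4 overlapped the KPC values. Hba-a1 (1.64), an alpha globin, also overlapped, while Alas2 (1.97), the erythroid enzyme of heme synthesis, and Slc4a1 (2.63), the anion exchanger of red cells, lay above the Sham range. Globin genes share reads with their paralogs. The list's summed count was 5050 to 11353 in the KPC samples and 3335 to 6040 in the Sham samples, and the part of blood in other results was not tested.

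Liver transcripts marked a single Sham library. Alb, albumin, had 0, 0, 11.9 and 1.49 in the KPC samples, against 527, 1.68, 1.07 and 0.978 in the Sham samples, and Apoa1, an apolipoprotein of liver and gut, had 0, 0, 0 and 0 in the KPC samples, against 232, 0.838, 1.07 and 0 in the Sham samples. Ttr, transthyretin, and Ahsg, fetuin-A, were likewise highest in Sham replicate 1. The median of 7 tested members (11 in the list) was -1.56, or -0.03 without Sham replicate 1, and 0 were called. Schwann cell markers overlapped, with 0 of 8 called by limma and 1 higher in the authors' deposited table. Among them were Mbp (0.15), Pmp22 (-0.52) and Ncam1 (0.96), which denervated fibres also express. The list's sums were 624 to 1029 in the KPC samples and 338 to 926 in the Sham samples, and Mag and S100b were not listed.

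The 4 KPC samples followed a common order in many lists. In genes with all KPC values above all Sham values, KPC replicate 1 was the farthest in 1127 of 1355 and KPC replicate 2 the nearest in 882. In genes below, the same replicates were farthest in 875 and nearest in 787 of 1233. The order was not the same everywhere. Tendon markers deviated by -2.14, -0.85, -2.46 and -3.05 and macrophage and neutrophil markers by 0.09, 0.49, 0.45 and 1.24 in KPC replicates 1 to 4, with replicate 4 extreme in both, and adipocyte markers by -0.91, -0.95, -0.87 and -1.01, nearly alike. Collagens lay at -1.48, -0.70, -1.08 and -1.42, with replicate 2 at a smaller distance than the other KPC samples but still below each Sham library, the lowest of which lay at -0.19. The labels give no tumour or muscle weight, so the order could not be set beside the severity of wasting.

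**Figure D4:**
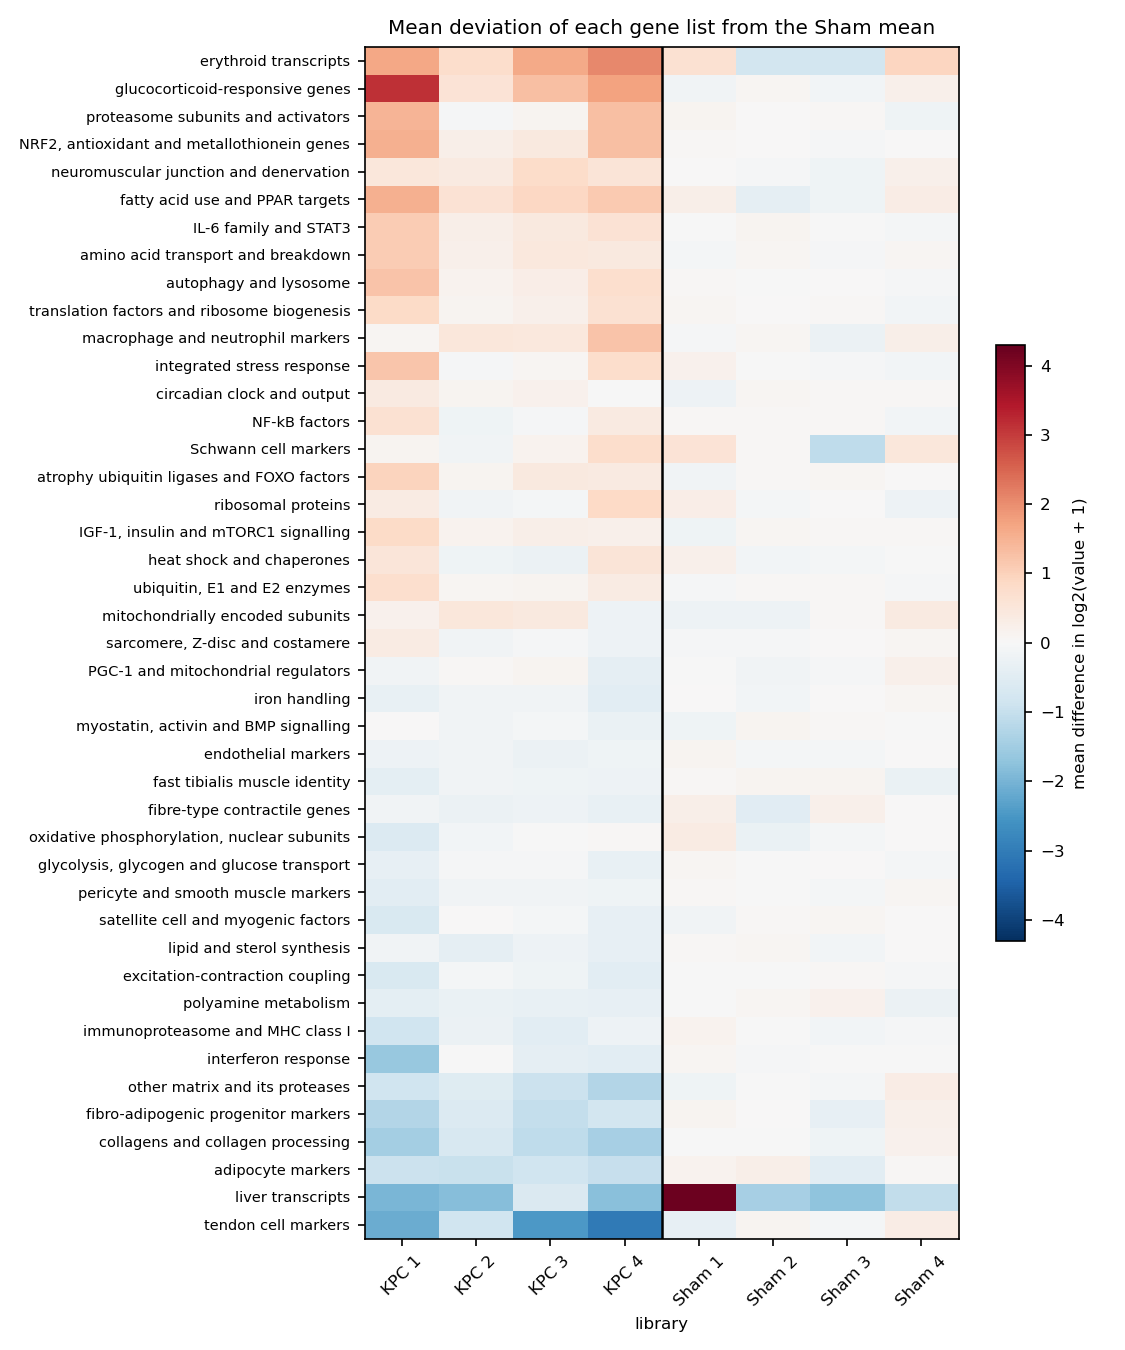
Mean difference in log2(value + 1) from the Sham mean of each gene list (rows, as in the plot of list members) in the 4 KPC libraries (left of the line) and 4 Sham libraries (right). Red is higher and blue lower than the Sham mean. Glucocorticoid-responsive genes are red in each KPC library, proteasome genes in KPC replicates 1 and 4, and collagens and matrix are blue in all 4, while Sham replicate 1 stands out for liver transcripts.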

How the data were processed

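RNA-seq values of tibialis anterior from 4 KPC and 4 Sham samples were analysed. Per the submitters' processing notes, bcl2fastq 2.17, featureCounts of Subread 1.5.2 and GRCm38 were used. The aligner was not given in the sources used here, nor was the strand setting. Values as deposited by the authors are a depth-scaled signal per gene, not coverage: each library's values were whole multiples of 1 step (100% of values within 0.01), so reads could be recovered by division. The deposited table also gives the authors' log2 fold change and their p-values, raw and adjusted, per the file headers, which name no test. Its log2 fold change had the sign of KPC over Sham group means in 99.7% of genes.

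Log2(value + 1) was tested with limma 3.58.1 (R 4.3.3; trend and robust variance) in genes with a mean of at least 10, without covariates, and p-values were adjusted by the Benjamini-Hochberg method. This step was first tested on simulated data, in which both groups were given the spread of the Sham samples. That simulation cannot show how the step behaves with the wider spread of the KPC samples. EdgeR 4.0.16 and DESeq2 1.42.0 on the recovered reads were alternatives. Listed genes held 22306724 to 31966189 reads per library, and the precision of a value is given by its spread over 4 libraries.

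The genes named were the 15 largest increases and the 15 largest decreases called by limma with no overlap between groups and a mean of at least 50, leaving out unnamed genes, predicted genes and pseudogenes, and in each list its key members, its called members and the 3 with the smallest p. Members and gene lists were chosen with earlier results of these data known. Identifiers matched a symbol for 13550 of 13578 genes, coordinates are GENCODE M21 on GRCm38, and promoter windows are RefSeq GRCm38.p6. Other libraries and comparisons of the study were not analysed here. Some members of the gene lists are counted but not reported here by name.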

Additional observations from a re-analysis of the deposited data

Results flagged for a closer look

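For each named gene and each group of 4 libraries, the gap between the highest or lowest library and the nearest of the others was divided by the range of the group. Of 588 such groups, 44 (7.48%) had a share large enough for 1 library to stand apart by Dixon's 95% criterion. The rate of about 1 in 20 behind that criterion holds for independent, normally distributed values. These groups come from the same libraries, and some genes were picked after their values were seen. The 7.48% therefore cannot be set against chance.

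KPC replicate 1 stood above the other KPC libraries in 16 genes. Those of breakdown and growth control were Sesn1 (gap 0.832 of the range), Bnip3 (0.845), Psme4 (0.856), Ulk1 (0.859), Igf1r (0.871), Pik3ip1 (0.891) and Mstn (0.981). Glul (0.865), Slc10a6 (0.852), Slc39a14 (0.921), Arntl (0.945) and Sox9 (0.987) were set apart in the same library. The muscle genes were Chrna2 (0.854), Ankrd2 (0.911), Musk (0.913) and Sln (0.918). KPC replicate 1 stood below the others in Rpl3l (0.905).

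KPC replicate 2 stood above the other KPC libraries, and so nearest the Sham values, in Gdf11 (0.847), Tceal7 (0.847), Loxl2 (0.870), Rian (0.881), F3 (0.887), Kera (0.918) and Heyl (0.931). KPC replicate 3 was highest in the liver transcripts Alb (0.875), Ahsg (1.0) and Ttr (1.0), at levels of a few reads, and KPC replicate 4 lowest in Mybpc2 (0.951).

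Sham replicate 1 stood above the other Sham libraries in Alb (0.999), Apoa1 (0.995), Ttr (0.990) and Ahsg (0.899), and in Foxo6 (0.846) and Hspa8 (0.850). It stood below them in Ube2g1 (0.855) and Lama2 (0.856). Sham replicate 3 was lowest in Apln (0.869). Sham replicate 4 was highest in Sat1 (0.876), Kera (0.884) and Plin4 (0.909), and lowest in Pvalb (0.872), Arntl (0.901), Ckm (0.913) and Myog (0.959).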

How the results depend on the processing

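Limma's 160 calls became 1595 with DESeq2 on the recovered reads and 1595 in the authors' deposited table. The smallest adjusted p was 3.048e-11 by DESeq2 and 3.049e-11 in the deposited table. Their agreement is therefore not a second line of support. Limma's calls became 87 with a mean value of at least 50, 257 after quantile normalisation and 4907 with a weight per library. The weights were 0.097, 0.936, 8.14 and 0.234 in KPC replicates 1 to 4, so KPC replicate 3 weighed most in its group. In Sham replicates 1 to 4 they were 0.599, 2.71, 3.01 and 1.17. The cause of the 4907 calls was not tested. Leaving out 1 library gave 0 to 1350 calls with limma. With DESeq2, an alternative chosen after seeing the data, it gave 652 to 2961. Genes without overlap numbered 2890 to 4118, against 2588 with all 8 libraries. Their number cannot fall when a library is left out, so the rise adds no support. EdgeR gave 179 calls, pseudocounts of 0.5 and 5 gave 154 and 220, no filter gave 160, TMM rescaling 193, ordinary variance estimates 150, and 151 calls exceeded 1 log2 unit. Of 89 called genes taken from the lists, the naming rule or the added description, 82 were called by edgeR, 85 after quantile normalisation, 63 with ordinary variance estimates, 62 at the higher mean limit of 50, and 39 with a replicate block. The log2 fold change of Tnfrsf12a reversed with a weight per library, to -1.29 (limma adjusted p = 0.0451, against 0.16 and adjusted p = 0.917 without weights; the cause was not tested). Of 5843 gene values over 20 settings, this was the 1 reversal. A change of sign counted as a reversal only if the gene was called in the main fit or in that setting. Changes of sign in genes called in neither were not counted. List medians changed sign in 27 of 630 settings.

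With the replicate block limma called 66 genes, 50 of them shared with the 160. The replicate numbers did not pair the samples: correlations of deviations between same-numbered KPC and Sham libraries were -0.137, 0.045, -0.014 and -0.265, and no library correlated best with its own number. Depth limited Alb, Apoa1 and similar genes that rest on few reads.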

Other observations

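Limma called 94 genes that neither the naming rule nor any list had chosen, and 23 of these are described here. They were picked after their values were seen, so they are a description. Klhl38, a kelch protein of muscle, had 2071, 1249, 2239 and 2295 in the KPC samples, against 454, 474, 554 and 613 in the Sham samples, and the KPC values did not spread as those of the ligases did (log2 fold change 1.87 ± 0.22 SE, limma adjusted p = 0.0255). Chrna2, a neuronal acetylcholine receptor subunit, had 162, 54.8, 60.5 and 43.2 in the KPC samples, against 10.1, 0, 4.28 and 5.87 in the Sham samples (log2 fold change 3.98 ± 0.71 SE, limma adjusted p = 0.0379). The arrestin-domain genes Arrdc2 and Arrdc3 both rose (log2 fold changes 1.90 and 1.87, limma adjusted p = 0.0427 and 0.0379). Genes of metabolism that rose were Slc27a1, a fatty acid importer (1.02), Idh2, mitochondrial isocitrate dehydrogenase (1.21), Prodh, proline dehydrogenase (1.29), Fdft1, squalene synthase (1.64), and Selenbp1, a selenium-binding protein (1.30). Ube4a, a ubiquitin ligase (1.53), and Csf2rb, a receptor chain shared by several cytokines (1.95), also rose on the log2 scale. The adjusted p-values of these 7 genes, in that order, were 0.0454, 0.0456, 0.0323, 0.0482, 0.0255, 0.0472 and 0.0379 by limma.

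Mrtfa and Actg1 were among the genes that fell. Mrtfa, a coactivator of serum response factor that responds to actin, had 90.5, 525, 269 and 209.9 in the KPC samples, against 1092, 1318, 1099 and 882 in the Sham samples (log2 fold change -2.25 ± 0.43 SE, limma adjusted p = 0.0445). Actg1, a cytoplasmic actin, had 1312, 1229, 1375 and 1238 in the KPC samples, against 2975, 2486, 2153 and 2439 in the Sham samples, with both groups narrow (log2 fold change -0.95 ± 0.16 SE, limma adjusted p = 0.0371). Gamt, which makes creatine, was at -2.05 on the log2 scale, Mettl21c, a muscle lysine methyltransferase, at -2.13, and Rian, a maternally expressed noncoding RNA, at -2.28 (limma adjusted p = 0.0371, 0.0371 and 0.0255). Irf5, an interferon regulatory factor (-2.41), Tet1, a DNA demethylase (-3.31), and F3, tissue factor (-2.11), fell as well (limma adjusted p = 0.0491, 0.0433 and 0.0371). Of genes of connective tissue outside the lists, Cd248, a fibroblast and pericyte receptor (-1.86), Tnxb, tenascin-X (-1.10), Ltbp4, which binds latent TGF-beta (-1.32), and Ccl11, the chemokine eotaxin (-1.23), fell beside the collagens. Their adjusted p-values were 0.0371, 0.0429, 0.0379 and 0.0433 by limma.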
